A study of Mus musculus with 8 samples.

Results

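The chemokine ligands were the 35 of 18131 array rows whose name followed the naming pattern of the CC, CXC, CX3C and C families (a family prefix, L and a number). There were 20 CC, 13 CXC, 1 CX3C and 1 C ligand, and the naming pattern uses no measured value. Their levels were followed in GFP-positive cells that had been sorted from the pylorus (antral stomach), the duodenum and the colon of adult Ngn3-GFP mice and profiled on Illumina bead arrays. All 8 arrays shared this genotype, in which GFP follows Ngn3 (Neurog3), the transcription factor that starts enteroendocrine differentiation. Gastric cells had 3 arrays, duodenal cells 3 and colonic cells 2. Whether the replicates of a segment are different animals is not in the labels, and p-values here rest on array-to-array spread that may be technical only. Stomach was dissociated with Accutase after a longer EDTA step, whereas duodenum and colon were digested with dispase, so dissociation and segment cannot be told apart in the 2 comparisons with gastric cells. The labels name the samples enteroendocrine cells, while the series design speaks of tissues.

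Chemokines are small secreted proteins that bind G protein-coupled receptors on leukocytes and steer their movement along a gradient. Some are made constantly and set which lymphocytes settle in an organ, whereas others are switched on by cytokines such as TNF and interferon-gamma during inflammation. In the gut, epithelial cells themselves make several ligands that place lymphocytes within the mucosa, and other ligands are made by the leukocytes living among them.

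Values are log2 expression, so a difference of 1 is a 2-fold change, and levels of different ligands are not set against each other because each gene has its own probes. Olfactory receptor rows served as a background reference. Their median over 1075 rows was 6.59, with the 95th percentile at 6.81, and a ligand whose group mean lay above 6.81 is called above background. By that line 1.77% of olfactory receptor rows were above background in gastric, 4.93% in duodenal and 5.02% in colonic cells, against 53.6%, 53.2% and 53.3% of all rows in the same order of segments. Where the dimmer group was under the line, the ratio is given as a lower bound. Differences close to background are compressed, and a ligand under the line may still be transcribed.

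Replicate arrays correlated closely in each segment, whereas marker levels differed between segments. Within-segment correlations over all rows were 0.9974 to 0.998. All 7 measured epithelial markers were above background in each segment. Their mean log2 level was 11.34 to 11.38 in gastric, 12.52 to 12.53 in duodenal and 12.48 to 12.50 in colonic arrays. Of 12 enteroendocrine markers, 11 were above background in gastric, 11 in duodenal and 10 in colonic cells, with a mean log2 level of 11.06 to 11.10 in gastric, 9.03 to 9.07 in duodenal and 7.66 to 7.67 in colonic arrays. The levels of both marker lists thus differed between segments alongside the ligands, and their part in the results was not tested. In RNA from a pool of cells, fewer cells of a type and less RNA per cell cannot be told apart.

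Of the 35 ligands, 10 were above background in gastric, 12 in duodenal and 14 in colonic cells, and 18 were above it in at least 1 segment. These 18 comprised 9 of the 20 CC ligands, 7 of the 13 CXC ligands, Cx3cl1 and Xcl1. Ccl6, Ccl9, Ccl25, Ccl27, Ccl28, Cxcl13, Cxcl16 and Cx3cl1 were above it in all 3 segments. The other 17 stayed under it everywhere, with single values between 6.34 and 6.96 and a median of 6.60. Among them were Ccl2, the main monocyte attractant, Ccl20, the attractant of immature dendritic cells, the neutrophil attractants Cxcl2 and Cxcl3, the lymph node ligands Ccl19 and Ccl21a, and Cxcl12, the ligand of Cxcr4. The rest were Ccl1, Ccl3, Ccl11, Ccl17, Ccl21c, Ccl22, Ccl26, Cxcl11, Cxcl14 and Cxcl15. Nearest to the line were Xcl1 in duodenal cells at 6.84 and Ccl24 in colonic cells at 6.85 just above it, and Ccl11 in duodenal cells at 6.80 just under it.

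**Figure D1:**
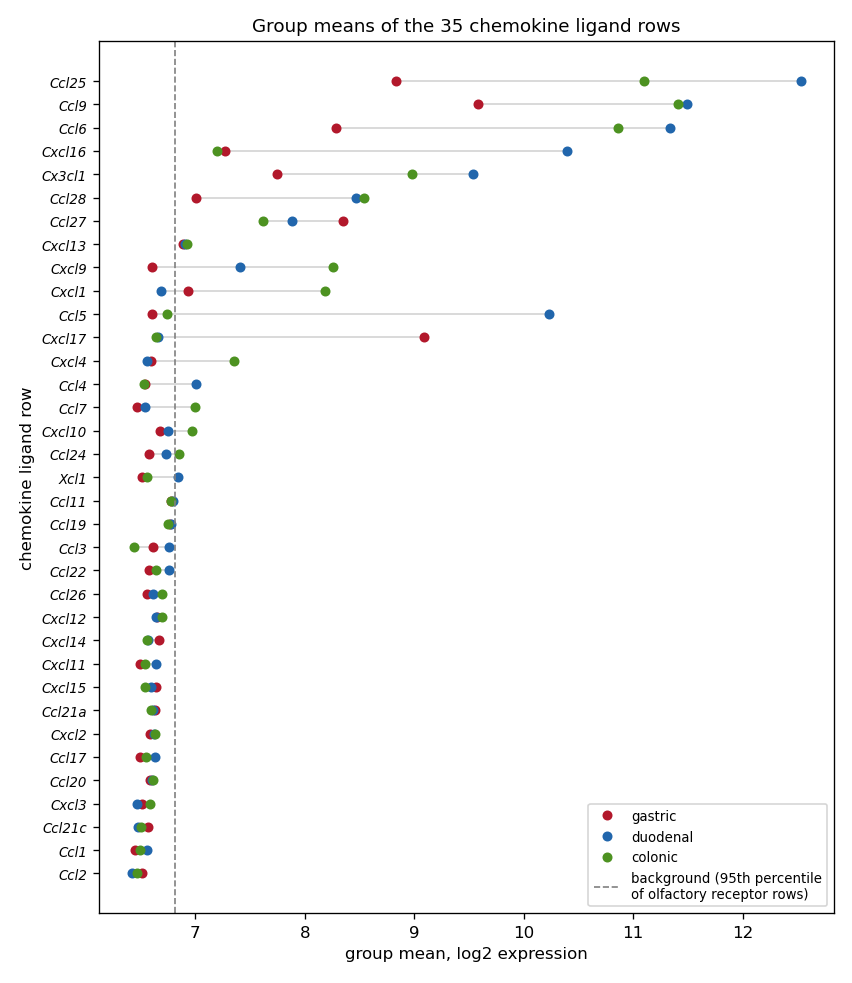
Mean log2 expression (horizontal axis) of the 35 ligands, 1 ligand a line, in gastric (3 arrays), duodenal (3) and colonic (2) cells, with the background line at 6.81 dashed. Ligands are ordered by the number of segments above background, and 17 lie under the line in all 3 segments.

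Differences between segments were tested with limma over all 18131 rows with Benjamini-Hochberg adjustment, and a call means an adjusted p under 0.05. Gastric against duodenal cells, 14 of the 35 ligands passed (40.0%), with 3 higher and 11 lower in gastric cells, against 46.6% of all rows, with 22.7% higher and 23.9% lower. Gastric against colonic cells, 15 passed (42.9%), with 3 higher and 12 lower in gastric cells, against 44.1% of all rows, with 20.2% higher and 23.9% lower. Duodenal against colonic cells, 14 passed (40.0%), with 9 higher and 5 lower in duodenal cells, against 34.2% of all rows, with 16% higher and 18.2% lower. A ligand was thus called about as often as any other row. Of the olfactory receptor rows, 4.65%, 5.02% and 3.53% were called in the same 3 comparisons.

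Calls of at least 2-fold made up a larger share of the ligands. In gastric against duodenal cells 8 of 35 ligands passed (22.9%; 1 higher and 7 lower), against 7.77% of all rows. In gastric against colonic cells 8 passed (22.9%; 1 higher and 7 lower), against 7.41% of all rows. In duodenal against colonic cells 4 passed (11.4%; 3 higher and 1 lower), against 3.56% of all rows. The median log2 difference over the 35 ligands was -0.07, -0.05 and 0.02 in these comparisons, against -0.01, -0.02 and -0.01 over all rows. The 3 comparisons share arrays, so their counts are not independent of each other.

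**Figure D2:**
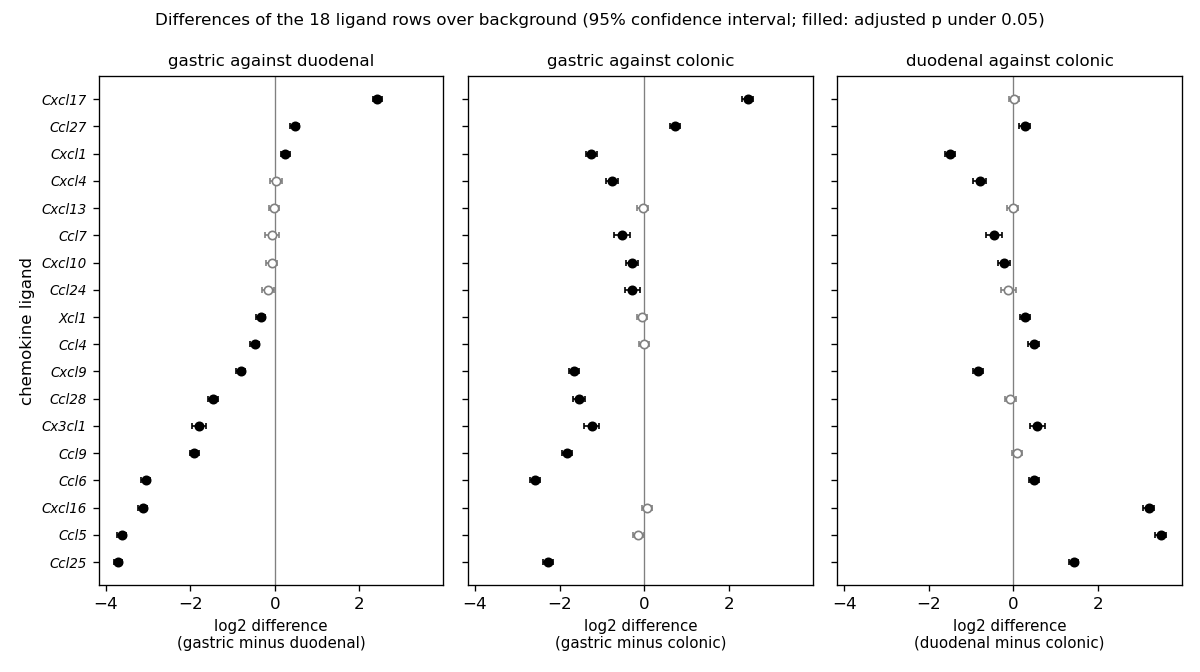
Log2 difference with its 95% confidence interval (horizontal axis) for the 18 ligands above background in at least 1 segment, in panels for gastric minus duodenal, gastric minus colonic and duodenal minus colonic cells; filled points have an adjusted p under 0.05. Ccl25 has a difference of -3.70 in the first panel, and Cxcl16 is at 0.08 in the second and 3.20 in the third.

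Of the mucosal homing ligands, Ccl25, Ccl27 and Ccl28 are epithelial chemokines that hold lymphocytes at body surfaces. Ccl25, the ligand that brings Ccr9-bearing T cells and IgA plasma cells to the small intestine, measured 8.83, 8.83 and 8.83 on the gastric arrays, 12.51, 12.58 and 12.50 on the duodenal arrays and 11.11 and 11.10 on the colonic arrays. The 3 segments did not overlap, with duodenal cells on top, colonic cells between and gastric cells lowest, and no single array stood apart in its group. Ccl25 was 13.0-fold lower in gastric than in duodenal cells (log2 difference -3.70, SE 0.0448, adjusted p = 2.29e-17, limma). It was also 4.84-fold lower in gastric than in colonic cells (-2.27, SE 0.0501, adjusted p = 1.57e-14). Duodenal cells were 2.69-fold above colonic cells (1.43, SE 0.0501, adjusted p = 8.16e-12). Enterocyte markers, 6 measured, moved in part with Ccl25, with a mean level of 8.17 to 8.21 in gastric, 10.62 to 10.66 in duodenal and 7.80 to 7.85 in colonic arrays. For 5 Paneth cell markers the mean was 9.99 to 10.01 in gastric, 11.97 to 12.02 in duodenal and 11.98 in colonic arrays. The part of either list in the Ccl25 levels was not tested.

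RefSeq (GRCm38.p6) gives 2 starts for Ccl25, and the 250 bases before each are printed because Ccl25 differed between all 3 segments. Capitals mark matches on either strand to letters of transcription factor motifs: CATAAA for CDX proteins, AGATAA for GATA proteins, TATAAA for the TATA box, GAAA, any 2 bases and GAAA for the interferon-stimulated response element (ISRE), and the NF-kB motif. Of 32851 promoter windows of this length, 10.8% held the CDX letters, 9.99% the GATA letters, 12.4% the TATA letters, 2.98% the ISRE letters and 7.25% the NF-kB motif. The upstream window is at chr8:4324960-4325209 and the downstream window at chr8:4349338-4349587, both on the plus strand.
Ccl25 upstream start: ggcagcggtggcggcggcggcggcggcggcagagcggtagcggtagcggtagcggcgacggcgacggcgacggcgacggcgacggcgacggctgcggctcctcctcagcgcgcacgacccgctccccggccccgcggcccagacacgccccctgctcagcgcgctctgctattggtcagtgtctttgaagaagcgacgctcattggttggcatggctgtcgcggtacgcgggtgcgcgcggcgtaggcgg
Ccl25 downstream start: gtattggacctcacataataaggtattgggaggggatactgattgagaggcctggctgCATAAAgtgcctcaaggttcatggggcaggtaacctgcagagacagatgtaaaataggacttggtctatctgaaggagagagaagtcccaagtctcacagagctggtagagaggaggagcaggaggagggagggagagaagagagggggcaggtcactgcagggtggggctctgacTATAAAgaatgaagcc
The upstream window held none of these motifs. The downstream window held the CDX letters from position -192 to -187 and the TATA letters from -16 to -11, counted back from the start. A match describes letters only, and a window without one says nothing of the factor.

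Ccl28, which draws IgA plasma cells through Ccr10, measured 7.05, 7.06 and 6.91 in gastric, 8.49, 8.51 and 8.40 in duodenal and 8.47 and 8.61 in colonic cells. Gastric arrays lay below all others, and duodenal and colonic arrays overlapped. It was 2.75-fold lower in gastric than in duodenal cells (adjusted p = 1.08e-11) and 2.90-fold lower in gastric than in colonic cells (adjusted p = 2.71e-11). Between duodenal and colonic cells the difference was -0.07, with a 95% interval of -0.21 to 0.06 (adjusted p = 0.45). The level in gastric cells, 7.01 ± 0.08 (SD, n = 3), was close to background.

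Ccl27, a Ccr10 ligand best known from skin keratinocytes, ran the other way. It measured 8.38, 8.42 and 8.26 in gastric, 7.84, 7.91 and 7.90 in duodenal and 7.60 and 7.64 in colonic cells. The groups did not overlap. Gastric cells were 1.38-fold above duodenal cells (adjusted p = 1.43e-06) and 1.66-fold above colonic cells (adjusted p = 3.89e-08), and duodenal cells were 1.20-fold above colonic cells (adjusted p = 0.00182). Ccl27 has near-identical gene copies in the mouse, so which copy the value reports is uncertain.

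Cxcl17, a mucosal ligand known from stomach and airway, measured 9.11, 9.07 and 9.10 in gastric, 6.75, 6.64 and 6.58 in duodenal and 6.65 and 6.64 in colonic cells. It was the one ligand above background only in gastric cells, and all intestinal arrays were under the line. Gastric cells were at least 4.85-fold above duodenal cells (log2 difference 2.43, SE 0.0506, adjusted p = 6.70e-15). The bound against colonic cells was also at least 4.85-fold (2.45, SE 0.0565, adjusted p = 2.66e-14). The 10 measured markers of gastric surface, neck, chief and parietal cells were also highest in gastric cells. All 10 were above background in gastric, 7 in duodenal and 2 in colonic cells. Unlike Cxcl17, 7 of the 10 were called higher in duodenal than in colonic cells (70%, against 34.2% of all rows). The mean level of the 10 markers was 13.61 to 13.62 in gastric, 8.59 to 8.61 in duodenal and 6.73 to 6.76 in colonic arrays. Their part in the Cxcl17 result was not tested.

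**Figure D3:**
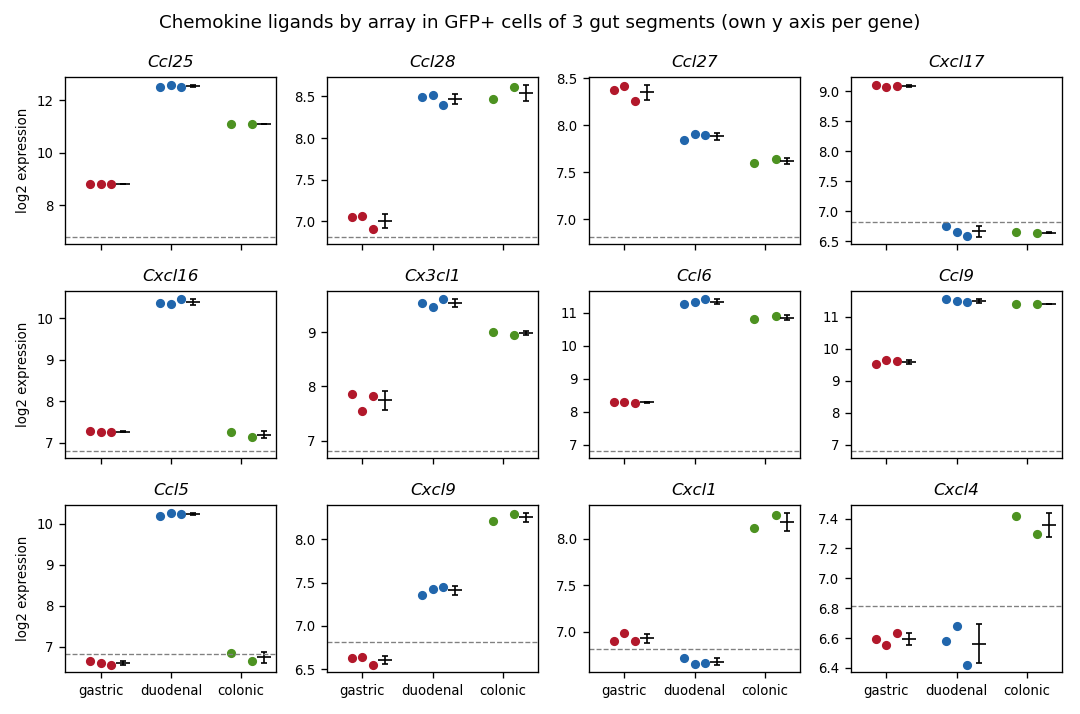
Log2 expression of 12 ligands on each of the 8 arrays, gastric, duodenal and colonic from left to right, with mean and SD beside the points and the background line at 6.81 dashed; each panel has its own vertical axis, which does not start at 0. Ccl25 runs from 8.83 in gastric to 12.58 in duodenal arrays, and Cxcl17 is above the line only in gastric arrays.

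The 2 membrane-anchored ligands, which are held on the cell surface by a stalk until proteases shed them, were both highest in duodenal cells. Cxcl16, the ligand of Cxcr6 on T and NKT cells, measured 7.29, 7.26 and 7.27 in gastric, 10.37, 10.34 and 10.47 in duodenal and 7.25 and 7.14 in colonic cells. The duodenal arrays stood alone, and the gastric and colonic arrays lay just above background. Gastric cells were 8.70-fold lower than duodenal cells (log2 difference -3.12, SE 0.0505, adjusted p = 4.65e-16), and duodenal cells were 9.18-fold above colonic cells (3.20, SE 0.0565, adjusted p = 2.59e-15). Gastric against colonic cells the difference was 0.08, with a 95% interval of -0.04 to 0.20 (adjusted p = 0.309). Cx3cl1, or fractalkine, the ligand of Cx3cr1 on mononuclear phagocytes, measured 7.87, 7.54 and 7.83 in gastric, 9.53, 9.47 and 9.62 in duodenal and 9.01 and 8.95 in colonic cells. Its groups did not overlap, and 1 gastric array was lower than the other 2 (SD 0.18, n = 3). Cx3cl1 was 3.47-fold lower in gastric than in duodenal cells (log2 difference -1.79, adjusted p = 1.87e-11) and 2.35-fold lower in gastric than in colonic cells (-1.23, adjusted p = 7.05e-09). Duodenal cells were 1.47-fold above colonic cells (0.56, adjusted p = 6.77e-05). Of the sheddases that release both ligands, Adam17 was above background in each segment (mean level 8.22 in gastric, 7.97 in duodenal and 8.02 in colonic cells) and Adam10 was under it in each.

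Ccl6 and Ccl9 are ligands of Ccr1, a receptor of myeloid cells, and are known from rodents. Ccl6 measured 8.28, 8.30 and 8.26 in gastric, 11.28, 11.32 and 11.43 in duodenal and 10.81 and 10.91 in colonic cells. Its groups did not overlap, and the intestinal arrays lay far above the gastric ones. Gastric cells were 8.32-fold lower than duodenal cells (log2 difference -3.06, SE 0.0515, adjusted p = 7.00e-16) and 5.96-fold lower than colonic cells (-2.58, SE 0.0576, adjusted p = 1.84e-14). Duodenal cells were 1.40-fold above colonic cells (0.48, adjusted p = 8.58e-06). Ccl9 measured 9.51, 9.63 and 9.61 in gastric, 11.55, 11.47 and 11.44 in duodenal and 11.41 and 11.41 in colonic cells. Here the gastric arrays were lower than all intestinal arrays, and the duodenal arrays lay just above the colonic ones. Ccl9 was 3.74-fold lower in gastric than in duodenal cells (adjusted p = 9.77e-14) and 3.53-fold lower in gastric than in colonic cells (adjusted p = 7.25e-13). Duodenal against colonic cells the difference was 0.08, with a 95% interval of -0.04 to 0.20 (adjusted p = 0.303).

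Macrophages and dendritic cells are a known source of both. Of 12 measured markers of these cells, 4 were above background in gastric, 3 in duodenal and 4 in colonic cells. Their mean level was 6.92 to 6.94 in gastric, 6.89 to 6.92 in duodenal and 7.03 to 7.04 in colonic arrays. The defining markers Adgre1, Csf1r, Fcgr1, Flt3 and Itgax were under background in every segment, while Cd14 was above it in all 3 and Lyz2 in gastric cells alone. The part of these markers in the Ccl6 and Ccl9 levels was not tested. In the follicle-associated epithelium Ccl9 is known from M cells. Ccl9 is 1 of their 5 measured markers. The list had a mean level of 8.35 to 8.38 in gastric, 8.44 to 8.46 in duodenal and 8.48 to 8.49 in colonic arrays. This mean cannot be set against Ccl9, because Ccl9 is part of it. Of the 5, 2 were higher and 3 lower, Ccl9 among them, in gastric than in duodenal cells. Gastric against colonic cells 2 were higher and 2 lower, and duodenal against colonic cells 1 was higher and 2 lower. The calls were 100%, 80% and 60% of the list, against 46.6%, 44.1% and 34.2% of all rows.

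The 250 bases before the start of Ccl6 (chr11:83593088-83593337, minus strand) and of Ccl9 (chr11:83578637-83578886, minus strand) are printed because the 2 genes are neighbours that were both low in gastric cells. Sequences are from RefSeq, GRCm38.p6, and capitals mark the same motifs as above.
Ccl6: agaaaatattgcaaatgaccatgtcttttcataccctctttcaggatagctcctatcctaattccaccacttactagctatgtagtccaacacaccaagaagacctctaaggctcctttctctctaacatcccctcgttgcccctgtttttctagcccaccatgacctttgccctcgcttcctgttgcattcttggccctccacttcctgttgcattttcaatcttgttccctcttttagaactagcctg
Ccl9: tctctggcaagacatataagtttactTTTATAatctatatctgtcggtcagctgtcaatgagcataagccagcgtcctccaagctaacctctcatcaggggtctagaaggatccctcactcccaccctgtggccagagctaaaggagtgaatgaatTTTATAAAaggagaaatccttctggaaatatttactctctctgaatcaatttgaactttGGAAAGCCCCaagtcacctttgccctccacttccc
The Ccl6 window held none of the motifs. The Ccl9 window held the TATA letters from -224 to -219 and, in 2 overlapping matches, from -94 to -87, and an NF-kB match from -35 to -26. In that annotation Ccl5, Ccl9, Ccl6, Ccl3 and Ccl4 follow each other on chromosome 11 with 0 other protein-coding genes between them. All 5 had their highest mean in duodenal cells, though Ccl3 stayed under background there, and Ccl5 and Ccl4 were under it in both other segments. For Ccl9 the difference between duodenal and colonic cells was not called (log2 difference 0.08, adjusted p = 0.303, limma). Ligands outside this stretch, such as Ccl25, Cxcl16 and Cx3cl1, also had their highest mean in duodenal cells. Whether neighbouring genes share their highest segment more often than other genes was not tested.

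The lymphocyte-derived ligands Ccl5, Ccl4 and Xcl1 were above background only in duodenal cells. Ccl5, made by cytotoxic T and NK cells, measured 6.66, 6.60 and 6.57 in gastric, 10.20, 10.25 and 10.24 in duodenal and 6.84 and 6.65 in colonic cells. The duodenal arrays stood far above the rest, and the gastric and colonic group means were under the line. Ccl5 was at least 10.7-fold lower in gastric than in duodenal cells (log2 difference -3.62, SE 0.0541, adjusted p = 1.98e-16), and at least 10.6-fold higher in duodenal than in colonic cells (3.49, SE 0.0605, adjusted p = 2.20e-15). Gastric against colonic cells it was not called (-0.14, adjusted p = 0.088). Without the second colonic array that difference was -0.23 and was called (adjusted p = 0.0141), although gastric cells were under background.

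Ccl4, made by activated lymphocytes and macrophages, measured 6.54, 6.50 and 6.58 in gastric, 7.08, 7.01 and 6.94 in duodenal and 6.58 and 6.49 in colonic cells. Xcl1, the ligand of Xcr1 on cross-presenting dendritic cells, measured 6.56, 6.54 and 6.45 in gastric, 6.90, 6.82 and 6.80 in duodenal and 6.59 and 6.53 in colonic cells. For both ligands every duodenal array was above every other array, but by small steps next to background. Ccl4 was at least 1.14-fold lower in gastric than in duodenal cells (adjusted p = 1.42e-06) and at least 1.14-fold higher in duodenal than in colonic cells (adjusted p = 8.98e-06). Xcl1 was at least 1.02-fold lower in gastric than in duodenal cells (adjusted p = 5.03e-05) and at least 1.02-fold higher in duodenal than in colonic cells (adjusted p = 0.000965). Ccl3, their relative, was called in all 3 comparisons while under background in each segment (log2 difference -0.14, adjusted p = 0.0316, gastric minus duodenal; 0.18, adjusted p = 0.0191, gastric minus colonic; 0.32, adjusted p = 0.000373, duodenal minus colonic). The first of these calls was lost without the first or the third gastric array or without the second or the third duodenal array (adjusted p up to 0.131). The second was lost without the second or the third gastric array or without the first colonic array (adjusted p up to 0.241), and the third held without any 1 of the 8 arrays.

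T and NK cell markers moved in part with these ligands. Of 11 measured, 0 were above background in gastric, 7 in duodenal and 1 in colonic cells. Their mean level was 6.62 to 6.65 in gastric, 7.41 to 7.44 in duodenal and 6.64 to 6.67 in colonic arrays. Among the 11, 0 were higher and 7 lower in gastric than in duodenal cells, and 0 were called between gastric and colonic cells. Duodenal against colonic cells 7 were higher and 1 lower. The calls were 63.6%, 0% and 72.7% of the 11, against 46.6%, 44.1% and 34.2% of all rows. Cd3g, a subunit of the T cell receptor complex, measured 6.55 to 6.66 in gastric, 8.81 to 8.87 in duodenal and 6.48 to 6.76 in colonic arrays. Nkg7, a cytotoxic granule gene, averaged 6.67 ± 0.07 in gastric (SD, n = 3), 8.14 ± 0.08 in duodenal (n = 3) and 6.71 ± 0.15 in colonic cells (n = 2). Itgae, the integrin of intraepithelial lymphocytes, averaged 6.79 ± 0.03, 7.77 ± 0.02 and 6.89 ± 0.05 in the same order. Cd4 and Cd8a were under background in every segment. Of 8 genes shared by all leukocytes, 4 were above background in gastric, 7 in duodenal and 0 in colonic cells, with a mean level of 6.99 to 7.02 in gastric, 7.66 to 7.70 in duodenal and 6.64 to 6.66 in colonic arrays. In this list 0 were higher and 7 lower in gastric than in duodenal cells, 5 higher and 0 lower in gastric than in colonic cells, and 8 higher and 0 lower in duodenal than in colonic cells. These calls were 87.5%, 62.5% and 100% of the list, against 46.6%, 44.1% and 34.2% of all rows. Ptprc, the leukocyte common antigen, was the 1 of the 8 under background in duodenal cells. The part of these markers in the Ccl5, Ccl4 and Xcl1 results was not tested.

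**Figure D4:**
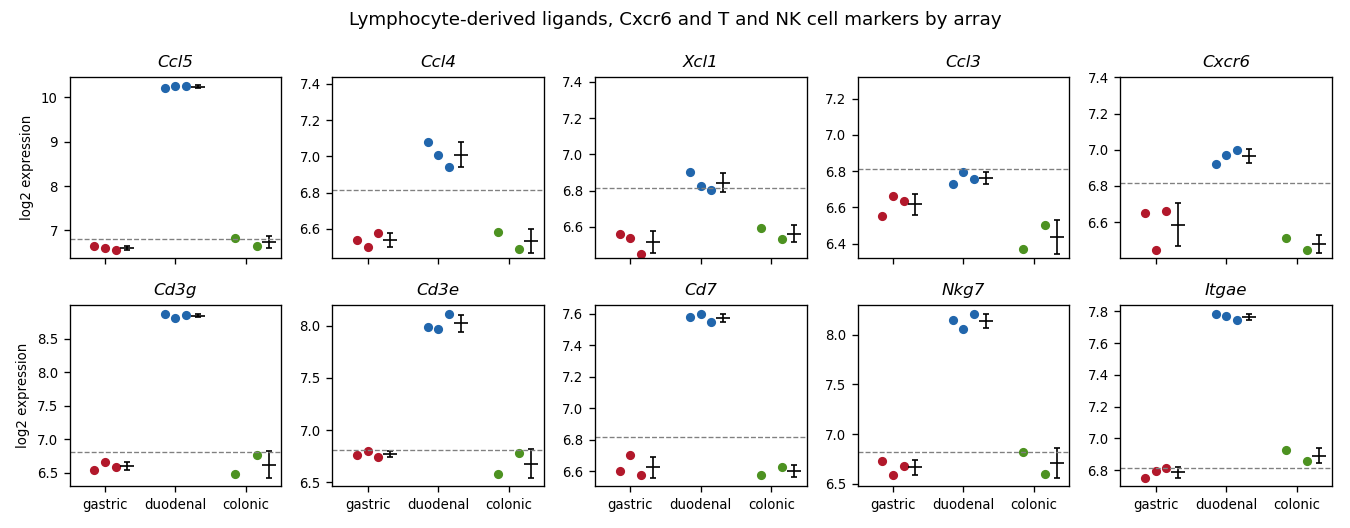
Log2 expression of lymphocyte-derived ligands, Cxcr6 and T and NK cell markers on each array, gastric, duodenal and colonic from left to right, with mean and SD beside the points, the background line at 6.81 dashed and an axis for each panel that does not start at 0. Ccl5 and Cd3g are both highest on the 3 duodenal arrays, at 10.20 to 10.25 and 8.81 to 8.87.

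Cxcl9, Cxcl10 and Cxcl11 are interferon-induced ligands of Cxcr3 on effector T cells. Cxcl9 measured 6.62, 6.64 and 6.55 in gastric, 7.36, 7.42 and 7.45 in duodenal and 8.22 and 8.29 in colonic cells. The groups did not overlap, and colonic cells were highest. It was at least 1.51-fold lower in gastric than in duodenal cells (log2 difference -0.81, adjusted p = 1.76e-09) and at least 2.71-fold lower in gastric than in colonic cells (-1.65, adjusted p = 1.67e-12). Duodenal cells were 1.80-fold below colonic cells (-0.84, SE 0.0544, adjusted p = 9.25e-09). Cxcl10 measured 6.79, 6.63 and 6.61 in gastric, 6.80, 6.81 and 6.65 in duodenal and 6.92 and 7.02 in colonic cells, so that it passed the line in colonic cells alone. It was at least 1.11-fold lower in gastric than in colonic cells (adjusted p = 0.00225) and at least 1.11-fold lower in duodenal than in colonic cells (adjusted p = 0.0215). The second call was lost without the third duodenal array (adjusted p = 0.0799) and without the second colonic array (adjusted p = 0.177). Cxcl11 was under background throughout.

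Of 25 measured genes of the interferon-gamma response, which hold none of the ligands, 2 were higher and 20 lower in gastric than in duodenal cells, with a median log2 difference of -0.93. Gastric against colonic cells 0 were higher and 21 lower (median -1.60), and duodenal against colonic cells 2 were higher and 14 lower (median -0.29). The calls were 88%, 84% and 64% of the list, against 46.6%, 44.1% and 34.2% of all rows. Gbp2, an interferon-induced GTPase, averaged 6.77 ± 0.04 in gastric, 8.03 ± 0.03 in duodenal and 8.93 ± 0.03 in colonic cells, and was 1.87-fold lower in duodenal than in colonic cells (adjusted p = 2.29e-09). Cd74, the invariant chain of MHC class II, was 20.1-fold lower in gastric and 8.75-fold lower in duodenal than in colonic cells (adjusted p = 4.35e-17 and 3.45e-15). Ifi47, another interferon-induced GTPase, was 7.37-fold lower in gastric than in duodenal cells (adjusted p = 3.94e-15) and 9.01-fold lower in gastric than in colonic cells (adjusted p = 5.26e-15). The MHC class II gene H2-Ab1 was 12.8-fold lower in gastric and 5.44-fold lower in duodenal than in colonic cells (adjusted p = 2.52e-16 and 6.18e-14). Ido1, which breaks down tryptophan, differed from Cxcl9 in order, since it was 17.5-fold higher in duodenal than in colonic cells (adjusted p = 1.72e-16). Ifng itself was under background in every segment, with means of 6.58 in gastric, 6.56 in duodenal and 6.53 in colonic cells.

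Neutrophil attractants such as Cxcl1 bind Cxcr2, and Cxcl1 was the only one of 4 neutrophil attractants above background. It measured 6.90, 6.99 and 6.91 in gastric, 6.72, 6.66 and 6.67 in duodenal and 8.11 and 8.25 in colonic cells. Colonic arrays were far above the rest, gastric arrays lay just above the line and duodenal arrays under it. Cxcl1 was 2.37-fold lower in gastric than in colonic cells (log2 difference -1.25, SE 0.0567, adjusted p = 7.40e-11) and at least 2.58-fold lower in duodenal than in colonic cells (-1.50, SE 0.0567, adjusted p = 1.94e-11). It was at least 1.09-fold higher in gastric than in duodenal cells (0.25, adjusted p = 0.000698).

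Several genes with the largest differences in the cytokine, attractant and pattern recognition lists, given here because of those differences, were highest in colonic cells, as Cxcl1 was. Tnf, a strong inducer of Cxcl1, measured 6.52, 6.58 and 6.56 in gastric, 6.92, 6.83 and 6.76 in duodenal and 7.68 and 7.72 in colonic cells, and was 1.82-fold lower in duodenal than in colonic cells (adjusted p = 1.09e-08). Saa1 and Saa3, serum amyloid proteins that also attract leukocytes, were at least 3.70-fold and at least 2.34-fold lower in gastric than in colonic cells (adjusted p = 8.83e-11 and 1.24e-10). Cd14, the co-receptor for bacterial lipopolysaccharide, was 5.44-fold lower in gastric and 4.21-fold lower in duodenal than in colonic cells (adjusted p = 8.75e-15 and 1.42e-13). Among 15 pattern recognition genes, 4 were higher and 6 lower in gastric than in duodenal cells, 0 higher and 10 lower in gastric than in colonic cells, and 0 higher and 7 lower in duodenal than in colonic cells. These calls were 66.7%, 66.7% and 46.7% of the list in the 3 comparisons, against 46.6%, 44.1% and 34.2% of all rows. Among 25 genes of the NF-kB pathway and its targets, 5 were higher and 12 lower in gastric than in duodenal cells, 2 higher and 12 lower in gastric than in colonic cells, and 4 higher and 9 lower in duodenal than in colonic cells. Here the calls were 68%, 56% and 52% of the list, against the same shares of all rows. Relb, a subunit of the non-canonical arm, was 2.10-fold lower in gastric than in duodenal cells (adjusted p = 1.96e-09) and 2.63-fold lower in gastric than in colonic cells (adjusted p = 3.98e-10). Tnfaip3, a feedback inhibitor, was 1.68-fold lower in duodenal than in colonic cells (adjusted p = 2.70e-07), whereas Nfkb2, the partner of Relb, was 1.62-fold higher (adjusted p = 1.25e-06). Nod1, a sensor of bacterial peptidoglycan, was 2.55-fold lower in duodenal than in colonic cells (adjusted p = 3.13e-11) and 2.51-fold higher in gastric than in duodenal cells (adjusted p = 3.66e-12). Of 9 granulocyte and mast cell markers, 0 were above background in gastric, 1 in duodenal and 0 in colonic cells.

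The promoter windows of Cxcl1 (chr5:90890995-90891244, plus strand) and Cxcl9 (chr5:92328080-92328329, minus strand) are printed because both ligands were highest in colonic cells. They are 250 bases before the start from RefSeq, GRCm38.p6, with the same motifs in capitals.
Cxcl1: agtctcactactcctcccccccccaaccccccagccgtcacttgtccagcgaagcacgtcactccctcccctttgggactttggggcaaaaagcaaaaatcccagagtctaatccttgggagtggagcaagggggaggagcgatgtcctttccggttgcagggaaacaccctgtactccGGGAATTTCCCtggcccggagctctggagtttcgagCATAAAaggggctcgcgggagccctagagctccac
Cxcl9: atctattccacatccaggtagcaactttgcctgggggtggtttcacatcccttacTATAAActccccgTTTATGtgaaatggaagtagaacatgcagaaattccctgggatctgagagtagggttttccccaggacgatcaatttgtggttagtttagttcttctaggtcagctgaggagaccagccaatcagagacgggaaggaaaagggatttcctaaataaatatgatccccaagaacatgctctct
Cxcl1 held 2 overlapping NF-kB matches from -71 to -61 and the CDX letters from -35 to -30. Cxcl9 held the TATA letters from -195 to -190 and the CDX letters from -182 to -177. The window of Cxcl10, which lies 1 protein-coding gene away from Cxcl9 on chromosome 5, held 3 NF-kB matches. Those from -104 to -95 and from -103 to -94 overlap. It also held the GATA letters and the ISRE letters, the last from -213 to -204. Over the 15 windows of the 12 ligands above background that matched a RefSeq entry, 4 held the CDX letters, 2 the GATA letters, 5 the TATA letters, 1 the ISRE letters and 3 the NF-kB motif. Among all 32851 windows the shares were 10.8%, 9.99%, 12.4%, 2.98% and 7.25% in that order. At least 1 of the motifs was in 8 of the 15, and no such share was counted over all windows. Ccl25 and Ccl27 gave several windows each, and some of those of Ccl27 overlap.

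**Figure D5:**
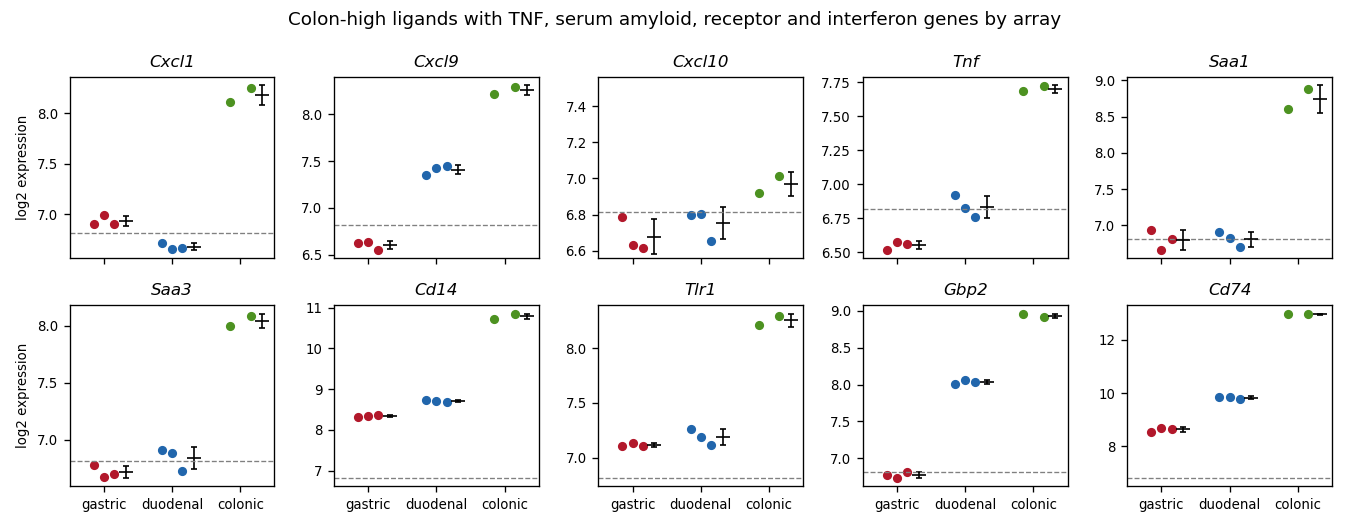
Log2 expression of Cxcl1, Cxcl9 and Cxcl10 with Tnf, Saa1, Saa3, Cd14, Tlr1, Gbp2 and Cd74 on each array, gastric, duodenal and colonic from left to right, with mean and SD beside the points, the background line at 6.81 dashed and an axis for each panel that does not start at 0. The 2 colonic arrays are the highest in all 10 panels, which follows from the choice, since genes high in colonic cells were picked with their values known. Ido1, of the same interferon-gamma response list, was higher in duodenal cells and is not drawn.

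3 further ligands rose above background in colonic cells alone, at lower levels. Cxcl4, the platelet ligand listed today as Pf4, measured 6.60, 6.55 and 6.63 in gastric, 6.58, 6.68 and 6.42 in duodenal and 7.41 and 7.30 in colonic cells. Ccl7, a monocyte attractant, measured 6.70, 6.41 and 6.31 in gastric, 6.45, 6.61 and 6.55 in duodenal and 7.01 and 6.98 in colonic cells. In both, each colonic array was above all others. Cxcl4 was at least 1.46-fold lower in gastric than in colonic cells (adjusted p = 2.72e-07) and at least 1.46-fold lower in duodenal than in colonic cells (adjusted p = 3.23e-07). Ppbp, another platelet chemokine, was under background in each segment, with means of 6.56 in gastric, 6.54 in duodenal and 6.56 in colonic cells. Cklf, a chemokine-like factor of another family, averaged 7.63 ± 0.02, 7.49 ± 0.05 and 7.91 ± 0.08 in that order. Ccl7 was at least 1.13-fold lower in gastric than in colonic cells (adjusted p = 0.000158) and at least 1.13-fold lower in duodenal than in colonic cells (adjusted p = 0.000811). Without the first gastric array it was also called lower in gastric than in duodenal cells (adjusted p = 0.0252), both under background.

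Ccl24, an eotaxin that attracts eosinophils through Ccr3, measured 6.70, 6.50 and 6.53 in gastric, 6.88, 6.74 and 6.58 in duodenal and 6.83 and 6.87 in colonic cells. Duodenal and colonic arrays overlapped, and all values were close to the line. It was at least 1.02-fold lower in gastric than in colonic cells (adjusted p = 0.00999), a call lost without the second colonic array (adjusted p = 0.0637). Gastric against duodenal cells it was not called (adjusted p = 0.0852), but it was without the first gastric array (adjusted p = 0.0256) or the third duodenal array (adjusted p = 0.0111). The eotaxin Ccl26 was called lower in gastric than in colonic cells (log2 difference -0.14, adjusted p = 0.0463) with both under background, and that call was lost when any array but the first colonic one was left out (adjusted p up to 0.394). Cxcl13, which guides B cells into follicles, lay between 6.81 and 7.00 on all 8 arrays, and none of its 3 comparisons was called (adjusted p = 0.852, 0.696 and 0.856).

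The receptors of these ligands were mostly at background in the same cells. Of 18 measured chemokine receptors, 1 was above background in each segment, and the mean level over the list ran from 6.55 to 6.64 over all arrays. Cxcr6, the receptor of Cxcl16, measured 6.65, 6.45 and 6.66 in gastric, 6.92, 6.97 and 7.00 in duodenal and 6.51 and 6.44 in colonic cells. It was at least 1.11-fold lower in gastric than in duodenal cells (adjusted p = 6.37e-05) and at least 1.11-fold higher in duodenal than in colonic cells (adjusted p = 3.05e-05), so ligand and receptor were both highest in duodenal cells. Cxcr4, the receptor of Cxcl12, was above the line in gastric cells (6.94 ± 0.01, SD, n = 3), and Ccr7, the lymph node receptor, in colonic cells (6.86 ± 0.13, SD, n = 2). Ccr9, Ccr10, Ccr1, Ccr3, Cxcr2, Cxcr3 and Cx3cr1 were under background everywhere. Over the 18 receptors, 1 was called higher and 1 lower in gastric than in duodenal cells, 1 higher and 2 lower in gastric than in colonic cells, and 1 higher and 1 lower in duodenal than in colonic cells. The calls were 11.1%, 16.7% and 11.1% of the receptors, below the 46.6%, 44.1% and 34.2% of all rows.

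Gpr182, an atypical receptor that takes up chemokines without signalling, was above background in gastric cells alone (7.69, 7.71 and 7.56) and was at least 1.79-fold higher in gastric than in duodenal (adjusted p = 1.06e-09) and than in colonic cells (adjusted p = 1.87e-09). Dpp4, a surface peptidase that trims the ends of several chemokines, was 1.71-fold lower in gastric than in duodenal cells (adjusted p = 5.57e-09) and 2.07-fold higher in duodenal than in colonic cells (adjusted p = 1.47e-09). Mmp7, a metalloprotease of Paneth and other epithelial cells, was 2.72-fold lower in gastric than in duodenal and 4.39-fold lower in gastric than in colonic cells (adjusted p = 3.65e-12 and 1.64e-13). Of 13 genes that process or bind ligands, 3 were higher and 4 lower in gastric than in duodenal cells, 2 higher and 3 lower in gastric than in colonic cells, and 1 higher and 4 lower in duodenal than in colonic cells. These calls were 53.8%, 38.5% and 38.5% of the list, near the shares of all rows.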

How the data were processed

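The authors deposited log2 values, 1 row per gene symbol, for 8 bead arrays of sorted GFP-positive cells. No source used here states the log base, and 2 was assumed because values ran between 6.22 and 15.49. Biotin-labelled cRNA was made from total RNA, per the labels' protocols. The submitters' processing notes list the tools GenomeStudio, lumi and limma without versions, roles or settings. The sorted columns agreed to within 0.0043, as quantile normalization leaves them. Nor is it stated how several probes became 1 row. Array depth was not a count, and the number of arrays limits precision.

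Groups came from titles and tissue labels. In R 4.3.3 with limma 3.58.1, group means were fitted to all 18131 rows and 8 arrays without covariates, with empirical Bayes moderation and Benjamini-Hochberg adjustment over all rows, called at an adjusted p under 0.05. The fit was tested on simulated data. For a lower bound ("at least") each array of the dimmer group was raised to 6.81 where it lay below, averaged, and subtracted from the brighter mean. With both groups under 6.81 no ratio was computed. Of the 35 row names, 33 were current mouse symbols and 2 older ones (Ccl27, now Ccl27a, and Cxcl4, now Pf4). Ccl21c and Ccl27 have near-identical copies and are uncertain. Annotation and promoter windows came from RefSeq, GRCm38.p6.

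The members and gene lists were chosen with earlier results of these data known. Ligands above background are given with every array value, and pathway genes were taken from the 3 most different called members per list and comparison, plus receptors of named ligands. Gbp2, Ifng, Adam10 and Adam17 fall outside that rule and were chosen after their values were seen. Some list genes were not analysed here. Alternatives covered normalization, the low-value filter, the background level, the variance model, the arrays fitted, array weights, the replicate number, a 2-fold limit and each array left out.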

Additional observations from a re-analysis of the deposited data

How the results depend on the processing

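Without a fold limit, 14, 15 and 14 ligands were called in gastric against duodenal, gastric against colonic and duodenal against colonic cells, and with at least 2-fold required the counts were 8, 8 and 4, a stricter limit by construction. With the replicate block the counts were 16, 14 and 13, although same-numbered arrays did not deviate together (correlations of deviations from -0.0138 to 0.0132). Restricting the fit to rows above background gave 13, 13 and 13, and the other normalizations, variance model, array weights and samples fitted gave 14 to 15. Leaving out each array in turn gave 14 to 16, 13 to 14 and 13 to 14. With the 90th percentile of the olfactory receptor rows as background, 12, 17 and 16 ligands were above it in gastric, duodenal and colonic cells, and with the 99th percentile 8, 10 and 12. Of all rows, 57.7%, 57.6% and 58.0% were above the first line and 47.8%, 47.5% and 47.7% above the second.

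Over 15 settings per comparison without the fold limit, 20 ligands were followed singly, the 18 above background with Ccl3 and Ccl26. Of their results 858 kept their direction and side of the threshold, 21 lost the call, 6 gained it and 9 changed sign. Their lost calls were of Ccl3, Ccl24, Ccl26 and Cxcl10 (duodenal against colonic also with the replicate block, -0.17, adjusted p = 0.0572), and the gained ones of Ccl5, Ccl7 and Ccl24, all with at least 1 group under or next to background. The other 15 ligands, under background in every segment and uncalled, gained 10 calls, all lower in gastric than in duodenal cells, in Ccl1, Ccl17, Ccl22 and Cxcl11. All 9 changes of sign among the 20 were of uncalled differences with 1 array left out, and their log2 differences are given as the lowest and the highest over the arrays left out in turn. These ran from -0.0625 to 0.0212 for Cxcl13 and from -0.18 to 0.0143 for Ccl7 in gastric minus duodenal cells, and from -0.0362 to 0.0937 for Cxcl4 in the same comparison. In gastric minus colonic cells they ran from -0.1136 to 0.0404 for Cxcl13 and from -0.0433 to 0.051 for Ccl4. In duodenal minus colonic cells they ran from -0.097 to 0.057 for Cxcl13 and from -0.0287 to 0.0569 for Cxcl17. The cause of these changes was not tested. Signal over background limits Ccl4, Ccl7, Ccl24, Xcl1, Cxcl10 and Cxcl13, whose levels lay at or near 6.81.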

Other observations

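Of 20 measured cytokines of epithelial cells, 2 were higher and 9 lower in gastric than in duodenal cells, 2 higher and 5 lower in gastric than in colonic cells, and 3 higher and 5 lower in duodenal than in colonic cells. The calls were 55%, 35% and 40% of the list, near the 46.6%, 44.1% and 34.2% of all rows. Il15, which sustains intraepithelial lymphocytes, measured 6.97, 6.96 and 6.89 in gastric, 8.05, 8.12 and 8.09 in duodenal and 8.29 and 8.34 in colonic cells. It was 2.22-fold lower in gastric than in duodenal cells (adjusted p = 1.49e-11, limma) and 2.60-fold lower in gastric than in colonic cells (adjusted p = 8.21e-12). Il33, an alarmin, was 2.20-fold lower in gastric than in duodenal cells (adjusted p = 1.09e-10) and at least 2.33-fold higher in duodenal than in colonic cells (adjusted p = 3.07e-10). Il18, an inflammasome product, was 3.08-fold lower in gastric than in colonic cells (adjusted p = 3.60e-12) and 1.51-fold lower in duodenal than in colonic cells (adjusted p = 7.95e-07).

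Of 18 measured receptors for chemokine-inducing cytokines, 3 were higher and 8 lower in gastric than in duodenal cells, 3 higher and 6 lower in gastric than in colonic cells, and 3 higher and 3 lower in duodenal than in colonic cells. The calls were 61.1%, 50% and 33.3% of the list, against 46.6%, 44.1% and 34.2% of all rows. Il17rc, a subunit of the IL-17A receptor, was 2.86-fold lower in gastric than in duodenal cells (adjusted p = 3.46e-13) and 3.01-fold lower in gastric than in colonic cells (adjusted p = 8.54e-13). Il17re, a subunit of the receptor for epithelial IL-17C, was 2.79-fold higher in gastric than in duodenal cells (adjusted p = 1.81e-12). Il17re was also 2.12-fold lower in duodenal than in colonic cells (adjusted p = 7.24e-10). Among 13 attractants that are not chemokines, 2 were higher and 4 lower in gastric than in duodenal cells, 1 higher and 7 lower in gastric than in colonic cells, and 2 higher and 7 lower in duodenal than in colonic cells, or 46.2%, 61.5% and 69.2% of the list. Lgals3, a galectin that attracts monocytes, was 7.65-fold lower in gastric than in duodenal cells (adjusted p = 1.16e-15) and 17.8-fold lower in gastric than in colonic cells (adjusted p = 8.50e-17). Anxa1, whose product restrains neutrophils, was at least 3.80-fold higher in gastric than in duodenal cells (adjusted p = 1.93e-13) and at least 4.95-fold lower in duodenal than in colonic cells (adjusted p = 3.10e-13). Of 7 leukocyte cytokines that induce chemokines, 0 were higher and 2 lower in gastric than in duodenal cells, 0 higher and 1 lower in gastric than in colonic cells, and 1 higher and 0 lower in duodenal than in colonic cells, or 28.6%, 14.3% and 14.3% of the list.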
